A study of Mus musculus with 12 samples.

Results

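This report covers 38 mouse genes of the integrated stress response and the unfolded protein response, out of 54532 genes counted in each of 12 RNA sequencing libraries. The genes were listed by name and role: 22 are Atf4 and genes that its product or the same stress pathway is known to induce, called the ATF4 arm below, and 16 are chaperones, quality control genes and regulators of the endoplasmic reticulum (ER), called the ER arm. All libraries come from L929 cells, an established mouse fibroblast line, with RNA taken 6 hours after transfection and 2 libraries per label. The untreated cells are labelled mock. The transfected cells are labelled HT-DNA, hpRNA, G3-YSD and HSV, and a further label gives cGAMP stimulation, cGAMP being the cyclic dinucleotide that cGAS makes after binding DNA. The remaining short names are kept as submitted, and no label names a genetic change. For HSV the digits 1 and 2 at the end of the sample names could also mean virus types, in which case its libraries would not be replicates. The labels do not say whether the 2 libraries of a label came from separate cultures, so p-values measure the spread between these libraries, part of which may be technical.

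As background, the integrated stress response starts when a kinase (PERK, PKR, GCN2 or HRI) phosphorylates the translation factor eIF2 alpha. Most translation then slows, while the Atf4 message is translated better, and the ATF4 protein induces genes of amino acid supply and stress control. The unfolded protein response starts from the ER sensors PERK, IRE1 and ATF6 and raises chaperones, folding enzymes and the machinery that removes misfolded proteins. Fibroblasts secrete collagen and so carry a large folding load, and double-stranded RNA made during viral infection can activate PKR. The data are messenger levels, so neither eIF2 alpha phosphorylation nor ATF4 protein nor the splicing of Xbp1 is seen in them.

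Levels are CPM (counts scaled to a common library size) with TMM factors, which correct library totals for composition. Total counts were 12650790 to 18912400 per library. Before the results, the libraries themselves differed in a way the labels do not give. By the root mean square difference of log2 CPM over 16840 genes, the nearest neighbour of all 12 libraries was one of another label with the same number. The 6 pairs were mock 1 with hpRNA 1, mock 2 with hpRNA 2, HT-DNA 1 with cGAMP 1, HT-DNA 2 with cGAMP 2, G3-YSD 1 with HSV 1 and G3-YSD 2 with HSV 2. That difference was 0.242 between G3-YSD 1 and HSV 1 and 0.266 between G3-YSD 2 and HSV 2, against 1.23 between G3-YSD 1 and G3-YSD 2. Genes with at least 1 count numbered 21635 to 22550 under the labels mock, HT-DNA, hpRNA and cGAMP (8 libraries), 26496 and 26241 in G3-YSD 1 and HSV 1, and 23997 and 23909 in G3-YSD 2 and HSV 2. Mitochondrial transcripts took 3.64% and 3.53% of counts in G3-YSD 2 and HSV 2 and 2.03% to 2.52% elsewhere. Of 10 fibroblast markers 8 were above 5 CPM in mock, Vim and Col1a1 among them, while Thy1 stayed at or below 0.488 CPM in all 12 libraries and Fap at or below 9.38 CPM. The 12 markers of leukocytes, epithelium and endothelium summed to 1.83 to 2.92 CPM in the 8 libraries and to 14.7, 7.38, 12.4 and 10.8 CPM in G3-YSD 1, G3-YSD 2, HSV 1 and HSV 2. Of that sum, Kdr made 10.5 CPM in G3-YSD 1 and 8.15 CPM in HSV 1. Their part in the results below was not tested. Source wording also differs between mock, HT-DNA and hpRNA on the one side and cGAMP, G3-YSD and HSV on the other, so comparisons of G3-YSD and HSV are given against cGAMP as well as mock.

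Under these same labels (mock, HT-DNA, hpRNA and cGAMP, 8 libraries) the stress genes lay close together. Of the 38 genes, 35 had a highest level less than 1.5 times their lowest over these 8 libraries, where 65.8% of all genes tested stayed under that ratio. The median of this ratio was 1.17 for the 38 genes and 1.35 for all genes. Ppp1r15a had the widest, 1.85-fold. The shares of all genes here and below were not matched to the 38 genes for level. The G3-YSD and HSV libraries stood apart in several genes. In G3-YSD 1, 2 of 38 genes were more than 2-fold above the mock mean, where 16.1% of all genes were, and 5 were more than 2-fold below it, where 4.48% of all genes were. In HSV 1, 2 were above, where 15.7% of all genes were, and 6 were below, where 4.93% were. Slc3a2 and Ppp1r15a were the genes above in both libraries, and Trib3, Slc7a11, Ddit4 and Herpud1 were below in both. Chac1 was below in G3-YSD 1 only, and Cebpb and Sel1l were in HSV 1 only, at this threshold. In G3-YSD 2, 0 of 38 genes were above (9.92% of all genes) and 7 were below (11.4%). In HSV 2, 0 were above (9.95%) and the same 7 were below (11.3%): Atf4, Chac1, Slc7a11, Cebpb, Ddit4, Dnajb9 and Xbp1. These counts rest on single libraries and carry no test. In bulk RNA, fewer cells with a transcript and less of it per cell cannot be told apart.

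**Figure D1:**
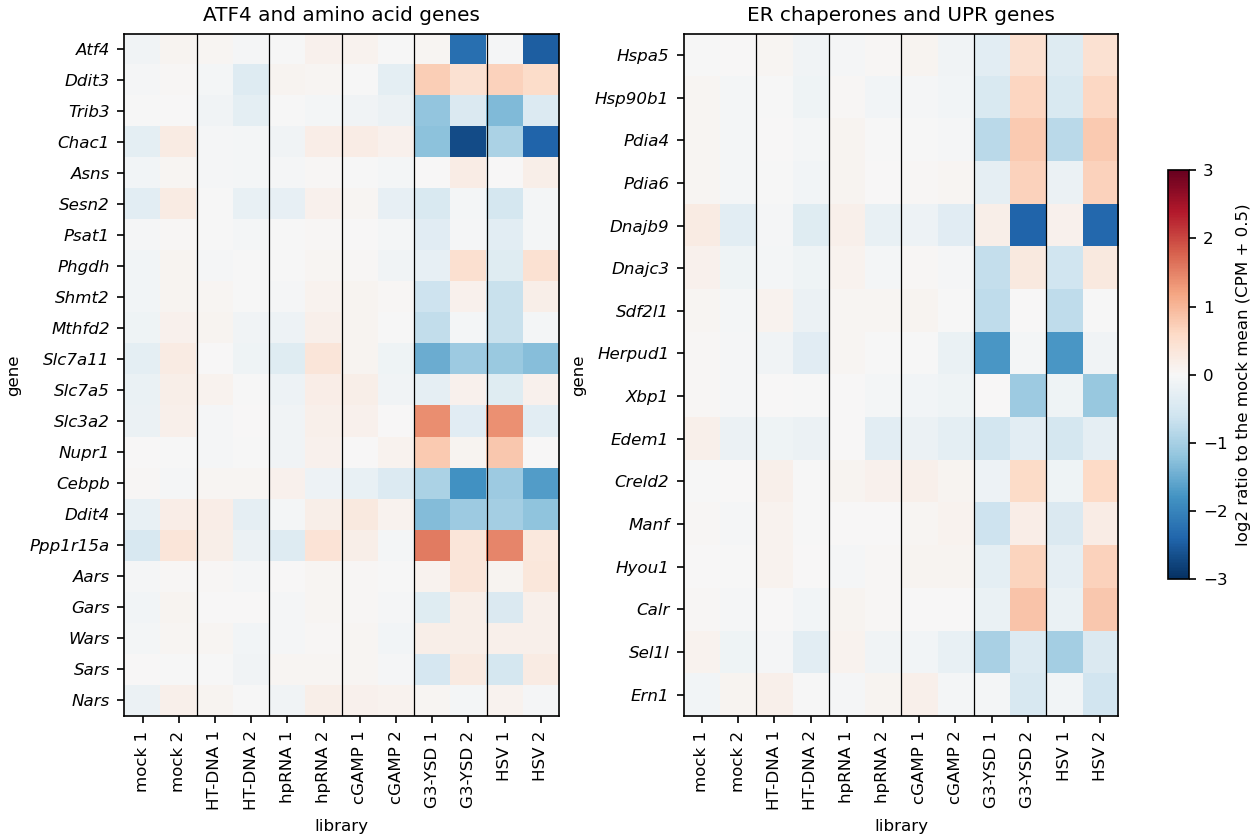
Heat map of the 38 genes in the 12 libraries, ATF4 arm on the left and ER arm on the right. Colour gives the log2 ratio of each library to the mean of the 2 mock libraries (CPM + 0.5), with libraries on the horizontal axis and genes on the vertical axis. The 8 libraries on the left of each panel are pale, and G3-YSD 1 resembles HSV 1 while G3-YSD 2 resembles HSV 2.

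The transcription factors of the ATF4 arm come first. Atf4 was at 612 and 699 CPM in the mock libraries, 682 and 639 under HT-DNA, 654 and 715 under hpRNA, and 699.8 and 647 under cGAMP, with library 1 named first here and below. Atf4 stood at 684 and 135 CPM under G3-YSD (libraries 1 and 2) and at 637 and 118 CPM under HSV. The messenger of the ATF4 factor itself was thus near the mock level in library 1 of G3-YSD and HSV, while library 2 had 0.199 and 0.186 times the level of library 1. Ddit3 was at 110.2 and 115 CPM in the mock libraries, 108 and 86.7 under HT-DNA, 119.8 and 117 under hpRNA, and 113 and 92.6 under cGAMP. For Ddit3, G3-YSD 1 gave 188 CPM, G3-YSD 2 gave 156 CPM, HSV 1 gave 183 CPM and HSV 2 gave 166 CPM. Ddit3 encodes CHOP, a factor that ATF4 induces and that favours cell death under long stress, and its 4 libraries labelled G3-YSD and HSV were all above the other 8. Cebpb was at 122 and 118 CPM in the mock libraries, 126 and 125 under HT-DNA, 131 and 108 under hpRNA, and 102 and 89.7 under cGAMP. Cebpb stood at 62.1 and 33.9 CPM under G3-YSD (libraries 1 and 2) and at 55.9 and 37.4 CPM under HSV. Cebpb encodes C/EBP beta, a bZIP factor that can pair with ATF4, and its 4 libraries labelled G3-YSD and HSV were all below the other 8, with library 2 the lowest under each of these labels. Of its exon length, 20.7% overlaps Tmem189 on the opposite strand, and without a known strand setting reads there cannot be assigned.

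Trib3 and Nupr1 are further nuclear regulators that ATF4 induces. Trib3 was at 194 and 198 CPM in the mock libraries, 182 and 159 under HT-DNA, 196 and 189 under hpRNA, and 183 and 172 under cGAMP. For Trib3, G3-YSD 1 gave 85.7 CPM, G3-YSD 2 gave 145 CPM, HSV 1 gave 78.3 CPM and HSV 2 gave 148 CPM. Trib3, a pseudokinase that restrains ATF4 and AKT signalling, was lower in library 1 than in library 2 of G3-YSD and HSV, and all 4 were below the other 8 libraries. Nupr1 was at 69.0 and 67.0 CPM in the mock libraries, 66.5 and 67.1 under HT-DNA, 63.6 and 74.7 under hpRNA, and 68.3 and 72.8 under cGAMP. Nupr1 stood at 117 and 71.7 CPM under G3-YSD (libraries 1 and 2) and at 119 and 68.7 CPM under HSV. Nupr1, a small chromatin protein induced by stress, was high in library 1 of G3-YSD and HSV, while library 2 stayed within the range of the other labels.

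The next genes handle cystine and glutathione. ATF4 acts through the C/EBP-ATF response element, whose core TTGCATCA was searched on both strands in RefSeq promoter windows of GRCm38.p6 (250 bases before to 50 after the transcript start). Of 19 ATF4 arm genes with a window 4 held this core (Chac1, Slc7a11, Nupr1 and Aars), as did 1 of 14 ER arm genes (Herpud1), against 1.03% of 27025 genes with a window. The looser core TGATGNAA, which covers the reverse complement of the first, was found in 7 of the 19 (also in Trib3, Asns and Gars) and in 1 of the 14, against 4.51% of all genes. Atf4, Ddit3, Cebpb and Ddit4 held neither in these windows. A match is a description of the letters and not evidence of binding. The stretches around the cores upstream of the start are shown for genes with wide ranges between libraries, with each core in capitals.
Slc7a11, chr3:50443623-50443709 (GRCm38.p6, minus strand): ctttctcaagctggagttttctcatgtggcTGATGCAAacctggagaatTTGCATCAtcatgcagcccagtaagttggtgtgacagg
Chac1, chr2:119351019-119351086 (GRCm38.p6, plus strand): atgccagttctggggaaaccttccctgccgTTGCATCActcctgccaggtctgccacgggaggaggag
Nupr1, chr7:126625543-126625610 (GRCm38.p6, minus strand): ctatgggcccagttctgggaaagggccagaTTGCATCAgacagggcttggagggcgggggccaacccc
Herpud1, chr8:94386287-94386354 (GRCm38.p6, plus strand): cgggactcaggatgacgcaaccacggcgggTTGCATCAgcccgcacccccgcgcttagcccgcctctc
In the Slc7a11 stretch the first capital block is the core on the opposite strand, at 66 bases before the start, and the second is the core on the gene's own strand, at 47 bases before it.

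Slc7a11 was at 43.0 and 63.3 CPM in the mock libraries, 53.8 and 48.6 under HT-DNA, 41.2 and 68.7 under hpRNA, and 56.2 and 48.8 under cGAMP. For Slc7a11, G3-YSD 1 gave 18.5 CPM, G3-YSD 2 gave 24.5 CPM, HSV 1 gave 24.4 CPM and HSV 2 gave 21.6 CPM. Slc7a11 encodes the cystine importer xCT, and all 4 libraries labelled G3-YSD and HSV were below the other 8 with no clear order between library 1 and 2. Chac1 was at 38.9 and 56.5 CPM in the mock libraries, 46.7 and 45.5 under HT-DNA, 44.5 and 54.9 under hpRNA, and 55.6 and 52.4 under cGAMP. Chac1 stood at 20.1 and 7.0 CPM under G3-YSD (libraries 1 and 2) and at 24.6 and 8.67 CPM under HSV. Chac1, which encodes an enzyme that breaks down glutathione, had the widest range of the ATF4 arm, 7.61-fold from highest to lowest on CPM + 0.5, and all 4 G3-YSD and HSV libraries were below the other 8. Its lowest level, in G3-YSD 2, rested on 91 counts. Slc3a2, the heavy chain that xCT and the leucine transporter Slc7a5 share, was chosen for description after its values were seen. For Slc3a2, G3-YSD 1 gave 591 CPM, G3-YSD 2 gave 176 CPM, HSV 1 gave 582 CPM and HSV 2 gave 180.4 CPM. It was between 199 and 248 CPM in the other 8 libraries, so library 1 of G3-YSD and HSV stood above them and library 2 below them. Slc7a5 itself lay between 173 CPM in HSV 1 and 253 CPM in hpRNA 2.

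Genes of the set that make amino acids or load them on tRNA follow. Asns was at 282 and 311 CPM in the mock libraries, 288 and 282 under HT-DNA, 289.7 and 306 under hpRNA, and 292 and 284 under cGAMP. Asns stood at 300.1 and 345 CPM under G3-YSD (libraries 1 and 2) and at 297 and 337 CPM under HSV. Asns, asparagine synthetase, thus had a range of only 1.22-fold over the 12 libraries. Psat1 was at 565 and 595 CPM in the mock libraries, 578 and 554 under HT-DNA, 579 and 590.5 under hpRNA, and 587 and 556 under cGAMP. For Psat1, G3-YSD 1 gave 460.5 CPM, G3-YSD 2 gave 563 CPM, HSV 1 gave 463 CPM and HSV 2 gave 556 CPM. Psat1 makes serine together with Phgdh, and library 1 of G3-YSD and HSV was the lowest for it. Mthfd2 was at 249 and 298 CPM in the mock libraries, 291 and 255 under HT-DNA, 245 and 302 under hpRNA, and 291 and 273 under cGAMP. Mthfd2 stood at 164 and 261 CPM under G3-YSD (libraries 1 and 2) and at 173 and 261 CPM under HSV. Mthfd2 and Shmt2 run the mitochondrial folate pathway that uses serine, and library 1 of G3-YSD and HSV was lowest for both. Phgdh was at 446 and 412 CPM in G3-YSD 1 and HSV 1, with 735 and 724 CPM in their second libraries, and Shmt2 was at 309 and 303 CPM against 523 and 539 CPM. The 5 tRNA synthetase genes of the set (Aars, Gars, Wars, Sars and Nars) had ranges of 1.20-fold to 1.75-fold over the 12 libraries, and Sars had the widest, with 591 CPM in HSV 1 and 1034 CPM in G3-YSD 2. Their levels in library 2 of G3-YSD were at or above those in library 1 except for Wars, at a ratio of 0.998, and Nars, at 0.924. For Aars and Wars all 4 G3-YSD and HSV libraries were above the other 8.

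Ddit4, Sesn2 and Ppp1r15a restrain growth or end the response. Ddit4 was at 42.7 and 56.9 CPM in the mock libraries, 57.1 and 41.0 under HT-DNA, 48.0 and 56.0 under hpRNA, and 60.9 and 54.0 under cGAMP. For Ddit4, G3-YSD 1 gave 19.9 CPM, G3-YSD 2 gave 23.0 CPM, HSV 1 gave 24.4 CPM and HSV 2 gave 21.1 CPM. Ddit4 encodes REDD1, an inhibitor of the growth kinase mTORC1, and all 4 libraries labelled G3-YSD and HSV were below the other 8, with library 1 and 2 close together. Sesn2 was at 109.8 and 162 CPM in the mock libraries, 135 and 116 under HT-DNA, 114 and 149 under hpRNA, and 141 and 114 under cGAMP. Sesn2 stood at 98.2 and 129.9 CPM under G3-YSD (libraries 1 and 2) and at 94.4 and 131 CPM under HSV. Sesn2 encodes a leucine sensor that also restrains mTORC1, and library 1 of G3-YSD and HSV was below the other 8 while library 2 lay within their range. Ppp1r15a was at 61.3 and 109 CPM in the mock libraries, 95.5 and 75.8 under HT-DNA, 64.8 and 114 under hpRNA, and 96.2 and 82.0 under cGAMP. For Ppp1r15a, G3-YSD 1 gave 252 CPM, G3-YSD 2 gave 109 CPM, HSV 1 gave 237 CPM and HSV 2 gave 106 CPM. Ppp1r15a encodes GADD34, which brings a phosphatase to eIF2 alpha and so ends the response. Its level in library 1 of G3-YSD and HSV exceeded every other library, and in library 2 it lay within the range of the other 8.

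**Figure D2:**
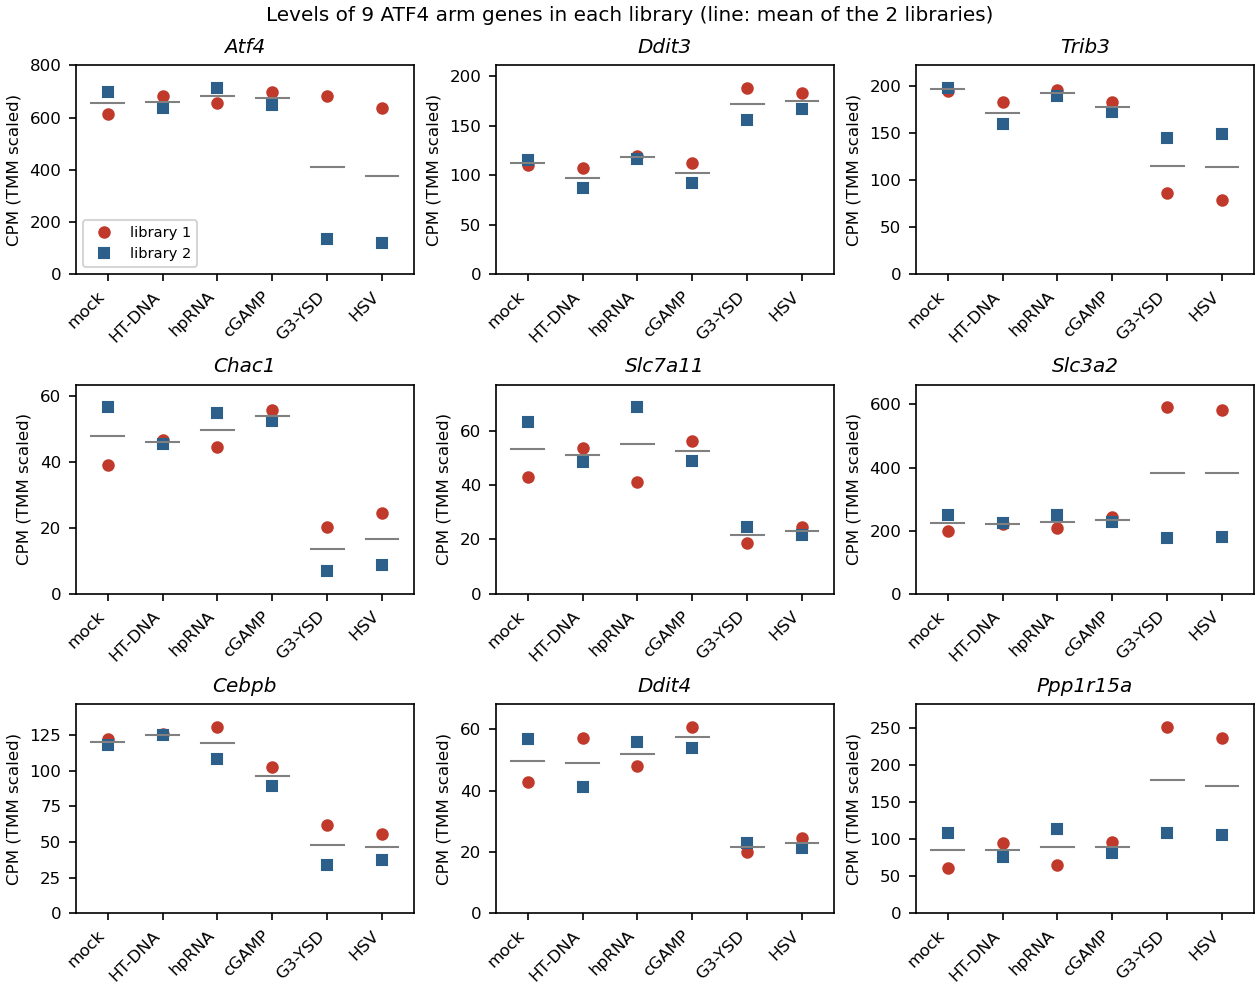
Levels of 9 ATF4 arm genes, with the label on the horizontal axis and CPM on a linear vertical axis from 0. Circles are library 1, squares library 2 and grey lines their mean. Slc7a11, Cebpb and Ddit4 are low and Ddit3 is high in all 4 G3-YSD and HSV libraries, while Atf4, Slc3a2 and Ppp1r15a separate library 1 from library 2.

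To ask which of these differences exceed the spread between libraries, each label was compared with mock, and G3-YSD and HSV also with cGAMP, by edgeR's quasi-likelihood test over 16840 genes at a Benjamini-Hochberg adjusted p under 0.05. All 38 genes passed the filter on low counts and were tested. In HT-DNA, hpRNA and cGAMP against mock, edgeR called 0 of the 38 genes, 0 of them had an unadjusted p under 0.05, and DESeq2 called 0 of them. The background in each of these comparisons was 0.0% of all genes by edgeR, where 62, 58 and 99 genes (0.368%, 0.344% and 0.588%) had an unadjusted p under 0.05 and DESeq2 gave 1, 1 and 0 calls. The fit takes 1 spread per gene from all 12 libraries, the widely parted G3-YSD and HSV libraries included. It could therefore hardly call small differences here, and the 0 do not show that there were none. An edgeR fit of only these 8 libraries, with the library number as a block, gave 1231, 355 and 1666 of 14543 genes an unadjusted p under 0.05. Among the 38 genes, the largest log2 fold changes in size were -0.21 for Ddit3 in HT-DNA, -0.14 for Edem1 in hpRNA and -0.32 for Cebpb in cGAMP.

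In G3-YSD against mock edgeR called 3 of 38 genes, all lower and all of the ATF4 arm, where 5.16% of all genes were called, 3.37% lower and 1.79% higher. Slc7a11 fell by 1.30 on the log2 scale (SE 0.29, adjusted p = 0.0406, edgeR), Cebpb by 1.32 (SE 0.29, adjusted p = 0.0421) and Ddit4 by 1.22 (SE 0.22, adjusted p = 0.0240). In HSV against mock 2 of 38 were called, where 5.2% of all genes were, 3.47% lower and 1.73% higher: Cebpb fell by 1.37 (SE 0.29, adjusted p = 0.0377, edgeR) and Ddit4 by 1.13 (SE 0.22, adjusted p = 0.0273). Slc7a11 there had a log2 fold change of -1.21 (SE 0.28, adjusted p = 0.0505), just outside the threshold. In mm10 these genes lie at chr3:49892526-50443614 (Slc7a11, minus strand), chr2:167688915-167690418 (Cebpb, plus strand) and chr10:59949669-59951834 (Ddit4, minus strand). The difference between G3-YSD and HSV was not tested, and both comparisons share the mock libraries. The members' share called, 3 and 2 of 38, is close to the background of all genes.

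Against cGAMP, edgeR called 3 of 38 genes in G3-YSD, where 5.0% of all genes were called, 3.15% lower and 1.85% higher. Ddit3 rose by 0.75 (SE 0.17, adjusted p = 0.0442), Slc7a11 fell by 1.29 (SE 0.29, adjusted p = 0.0431) and Ddit4 fell by 1.42 (SE 0.22, adjusted p = 0.0158). In HSV against cGAMP 2 of 38 were called, where 5.08% of all genes were, 3.31% lower and 1.78% higher. Ddit3 rose by 0.77 (SE 0.17, adjusted p = 0.0405) and Ddit4 fell by 1.33 (SE 0.22, adjusted p = 0.0181). Ddit3 against mock had log2 fold changes of 0.61 in G3-YSD and 0.63 in HSV (adjusted p = 0.0770 and 0.0694, edgeR), which did not pass, while DESeq2 and upper quartile scaling called it in both. Slc7a11 in HSV against mock was called by DESeq2. Upper quartile scaling in place of TMM raised the median over all genes, on the log2 scale, by 0.14 in G3-YSD and 0.15 in HSV against mock. Under it the calls over all genes split as 364 higher and 314 lower in G3-YSD against mock and 347 and 304 in HSV, against 302 and 567 and 291 and 585 on the TMM scale. Against cGAMP the split was 375 higher and 295 lower in G3-YSD, and 360 higher and 297 lower in HSV, in place of 312 and 530 and 299 and 557.

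These calls were close to the threshold, and most were lost in many of the fits that left out 1 library, also one of a label not compared. Such a fit has fewer residual degrees of freedom and tests another set of genes. A lost call therefore need not rest on the values of the library left out. With each of the 12 libraries left out in turn, Ddit4 stayed called in 4 of 12 fits in G3-YSD against mock (without HT-DNA 1, HT-DNA 2, HSV 1 or HSV 2) and in 2 in HSV (without G3-YSD 1 or 2). Without mock 2 its adjusted p was 0.144 in G3-YSD and 0.165 in HSV. Slc7a11 in G3-YSD against mock stayed called in 4 fits (without hpRNA 1, hpRNA 2, HSV 1 or HSV 2), and without mock 2 its adjusted p was 0.228. Cebpb stayed called in 3 fits in G3-YSD (without G3-YSD 1, HSV 1 or HSV 2) and 3 in HSV (without HSV 1, G3-YSD 1 or G3-YSD 2), with adjusted p of 0.218 and 0.204 without mock 1. Against cGAMP, Ddit4 stayed called in 8 fits in G3-YSD and 9 in HSV, and was lost without cGAMP 1 (adjusted p = 0.151 and 0.173), cGAMP 2 (0.0996 and 0.111) and library 2 of the label compared (0.0503 and 0.0718). In G3-YSD it was also lost without G3-YSD 1 (0.0502). Slc7a11 in G3-YSD against cGAMP stayed called in 4 fits, with up to 0.261 without cGAMP 1. Ddit3 stayed called in 2 fits in each, with up to 0.286 in G3-YSD and 0.272 in HSV, both without cGAMP 2. The direction of each of these 10 calls held in all 12 fits, with log2 fold changes of -0.99 to -1.42 for Ddit4 and -0.997 to -1.56 for Slc7a11 in G3-YSD against mock.

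The other ATF4 arm genes had wide errors where library 1 and 2 parted. Atf4 had a log2 fold change of -0.68 (SE 0.80) in G3-YSD and -0.80 (SE 0.80) in HSV against mock. Chac1 had a log2 fold change of -1.81 (SE 0.56) in G3-YSD and -1.52 (SE 0.55) in HSV against mock. Chac1 had the lowest value of the arm and Ppp1r15a the highest. Trib3 had a log2 fold change of -0.77 (SE 0.32) in G3-YSD and -0.79 (SE 0.32) in HSV against mock. Ppp1r15a had a log2 fold change of 1.08 (SE 0.52) in G3-YSD and 1.01 (SE 0.52) in HSV against mock. Genes with close libraries had small errors and small differences. Asns had a log2 fold change of 0.12 (SE 0.13) in G3-YSD and 0.10 (SE 0.13) in HSV against mock. Psat1 had a log2 fold change of -0.18 (SE 0.14) in G3-YSD and -0.19 (SE 0.14) in HSV against mock. Mthfd2, Sesn2 and Nupr1 lay between. Mthfd2 had a log2 fold change of -0.37 (SE 0.27) in G3-YSD and -0.33 (SE 0.27) in HSV against mock. Sesn2 had a log2 fold change of -0.25 (SE 0.27) in G3-YSD and -0.27 (SE 0.27) in HSV against mock. Nupr1 had a log2 fold change of 0.47 (SE 0.29) in G3-YSD and 0.46 (SE 0.29) in HSV against mock. Adjusted p over these 9 genes lay between 0.103 and 0.662. The median log2 fold change of the 22 ATF4 arm genes was -0.06 in G3-YSD and -0.10 in HSV against mock, where that of all genes was 0.11 and 0.10.

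**Figure D3:**
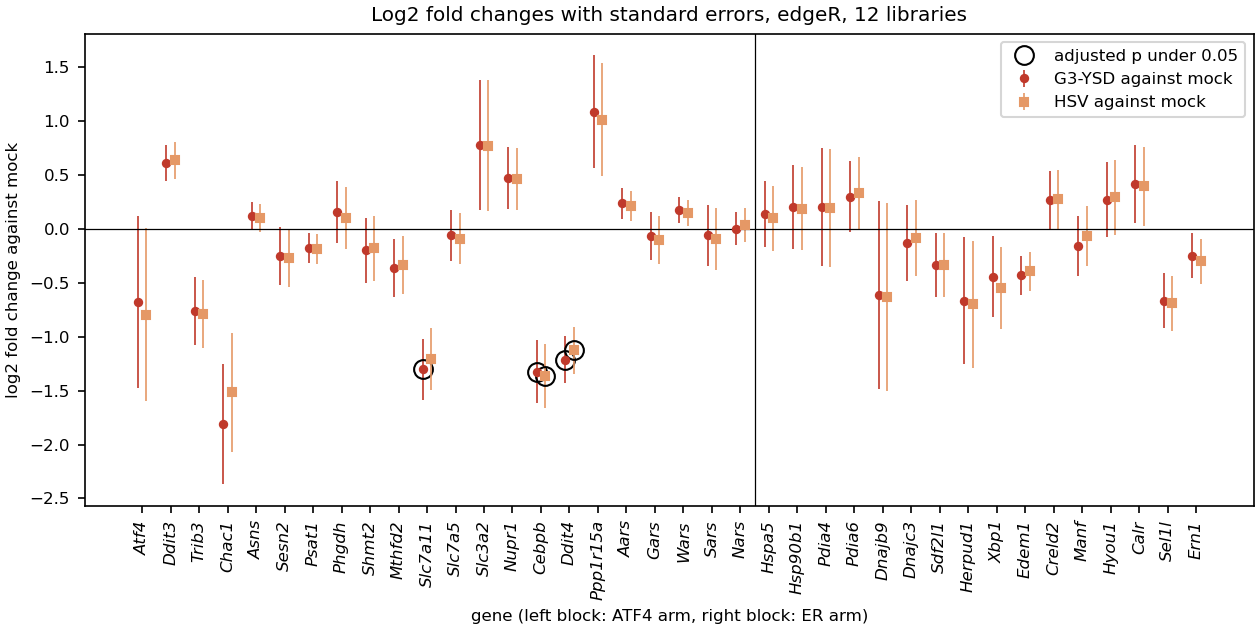
Log2 fold change against mock of the 38 genes in G3-YSD (circles) and HSV (squares), with standard errors as bars and black rings around genes with an adjusted p under 0.05. Genes are on the horizontal axis, ATF4 arm left and ER arm right. The rings mark Slc7a11, Cebpb and Ddit4, and long bars such as those of Atf4 and Dnajb9 mark genes whose 2 libraries differ.

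Among the ER arm, the main chaperones parted library 1 from library 2. Hspa5 was at 6141 and 6298 CPM in the mock libraries, 6489.8 and 5751 under HT-DNA, 6115 and 6382 under hpRNA, and 6531 and 5774 under cGAMP. Hspa5 stood at 4977 and 8691 CPM under G3-YSD (libraries 1 and 2) and at 4749.9 and 8547 CPM under HSV. Hspa5 encodes BiP, the ER chaperone of the HSP70 family that also holds the ER sensors inactive, and it made 34.3% and 36.4% of the arm's summed CPM in mock 1 and 2. Hsp90b1 was at 3014 and 2819.6 CPM in the mock libraries, 2893 and 2652 under HT-DNA, 3012 and 2774 under hpRNA, and 2839 and 2767 under cGAMP. For Hsp90b1, G3-YSD 1 gave 2135 CPM, G3-YSD 2 gave 4569 CPM, HSV 1 gave 2131 CPM and HSV 2 gave 4507 CPM. Hsp90b1 encodes GRP94, the ER chaperone of the HSP90 family. For both genes library 1 of G3-YSD and HSV was below, and library 2 above, every one of the other 8 libraries. Of the Hsp90b1 exon length 10.3% overlaps a pseudogene on the opposite strand. Calr, a lectin chaperone for glycoproteins chosen for description after its values were seen, was at 1543 and 1557 CPM in G3-YSD 1 and HSV 1, at 3190 and 3106 CPM in G3-YSD 2 and HSV 2, and between 1681 and 1866 CPM in the other 8. Hyou1, which recharges BiP with ATP, was at 874 and 890 CPM in the same libraries 1 and at 1711 and 1740 CPM in libraries 2. Dnajc3, a BiP partner that inhibits PERK and PKR, was at 102 and 110.3 CPM against 204 and 205 CPM.

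ATF6 and XBP1 act on the ER stress response element, made of CCAAT, any 9 bases and CCACG. Searched on both strands of the same windows, it was found in 6 of 14 ER arm genes with a window and in 0 of 19 ATF4 arm genes, against 0.137% of all genes (37 of 27025). The unfolded protein response element core TGACGTGG was in 0 of the 33 genes with a window and in 0.714% of all. The 6 genes hold 7 elements, shown on the strand on which they read as above, with CCAAT and CCACG in capitals and the element's place from the transcript start.
Hspa5, chr2:34772025-34772043, 65 to 47 bases before the start: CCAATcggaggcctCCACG
Hsp90b1, chr10:86705638-86705656, 212 to 194 bases before the start: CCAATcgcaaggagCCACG
Hsp90b1, chr10:86705533-86705551, 107 to 89 bases before the start: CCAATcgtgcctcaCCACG
Calr, chr8:84847075-84847093, 162 to 144 bases before the start: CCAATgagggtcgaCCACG
Pdia6, chr12:17266491-17266509, 98 to 80 bases before the start: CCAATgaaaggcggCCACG
Dnajc3, chr14:118937827-118937845, 105 to 87 bases before the start: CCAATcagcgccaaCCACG
Creld2, chr15:88819520-88819538, 126 to 108 bases before the start: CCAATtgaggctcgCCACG
The 6 genes with an element were 1.67-fold to 2.14-fold higher in library 2 than in library 1 of G3-YSD, and 1.66-fold to 2.11-fold higher in HSV. The other 8 ER arm genes with a window had ratios of 0.168 to 3.27 in G3-YSD and 0.177 to 3.14 in HSV, so genes without the element included both the highest and the lowest ratios. The genes were not chosen at random and no test was made.

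Pdia4, a disulfide isomerase of the ER, was at 1459 and 1351 CPM in the mock libraries, 1411 and 1356 under HT-DNA, 1495 and 1384 under hpRNA, and 1385 and 1372 under cGAMP. Pdia4 stood at 806 and 2432 CPM under G3-YSD (libraries 1 and 2) and at 806 and 2409 CPM under HSV. The last values are a 3.02-fold and 2.99-fold difference between the 2 libraries of a label. Pdia6, of the same family, ranged from 1667 CPM in G3-YSD 1 to 3250 CPM in HSV 2. Creld2 was at 356 and 361 CPM in the mock libraries, 397 and 357 under HT-DNA, 379 and 389.5 under hpRNA, and 402 and 377 under cGAMP. For Creld2, G3-YSD 1 gave 322 CPM, G3-YSD 2 gave 538 CPM, HSV 1 gave 326 CPM and HSV 2 gave 539.9 CPM. Creld2 and Manf encode small proteins of the ER that are secreted under stress. Manf was at 529 and 505 CPM in the mock libraries, 552 and 516 under HT-DNA, 522 and 524 under hpRNA, and 539 and 557 under cGAMP. Manf stood at 334 and 593 CPM under G3-YSD (libraries 1 and 2) and at 383 and 603 CPM under HSV. For both genes library 1 of G3-YSD and HSV was lowest and library 2 highest. Sdf2l1 was at 259 and 241 CPM in the mock libraries, 271 and 222 under HT-DNA, 259 and 261 under hpRNA, and 267 and 249 under cGAMP. For Sdf2l1, G3-YSD 1 gave 146 CPM, G3-YSD 2 gave 250.1 CPM, HSV 1 gave 147 CPM and HSV 2 gave 249 CPM. Sdf2l1, a BiP cofactor, was low in library 1 only.

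Herpud1, Sel1l and Edem1 act in the removal of misfolded proteins. Herpud1 was at 147 and 142 CPM in the mock libraries, 135 and 115 under HT-DNA, 151 and 143 under hpRNA, and 143 and 127 under cGAMP. Herpud1 stood at 42.5 and 140.1 CPM under G3-YSD (libraries 1 and 2) and at 42.9 and 136 CPM under HSV. Herpud1 organises the ubiquitin ligase complex of ER-associated degradation, and library 2 of G3-YSD and HSV was 3.27-fold and 3.14-fold above library 1 and within the range of the other labels. Sel1l, the adaptor of that ligase, was at 295 and 249 CPM in the mock libraries, 267 and 218 under HT-DNA, 294 and 254 under hpRNA, and 257 and 233 under cGAMP. For Sel1l, G3-YSD 1 gave 138 CPM, G3-YSD 2 gave 205 CPM, HSV 1 gave 135 CPM and HSV 2 gave 202 CPM. All 4 G3-YSD and HSV libraries of Sel1l were thus below the other 8, and its log2 fold change was -0.67 (SE 0.25, adjusted p = 0.165) in G3-YSD and -0.69 (SE 0.25, adjusted p = 0.152) in HSV against mock by edgeR. Edem1, which picks glycoproteins for degradation, ranged from 121 CPM in G3-YSD 1 to 197 CPM in mock 1.

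Xbp1 and Ern1 are regulators of the response and Dnajb9 is a co-chaperone. Xbp1 was at 198 and 189 CPM in the mock libraries, 196 and 193 under HT-DNA, 195 and 187 under hpRNA, and 184 and 176 under cGAMP. Xbp1 stood at 194 and 90.7 CPM under G3-YSD (libraries 1 and 2) and at 177 and 88.2 CPM under HSV. Xbp1 encodes the factor whose messenger IRE1 splices, and counts per gene do not separate its spliced form. Ern1 was at 72.9 and 81.2 CPM in the mock libraries, 85.5 and 76.7 under HT-DNA, 74.8 and 81.5 under hpRNA, and 85.3 and 73.6 under cGAMP. For Ern1, G3-YSD 1 gave 74.5 CPM, G3-YSD 2 gave 55.2 CPM, HSV 1 gave 73.1 CPM and HSV 2 gave 51.9 CPM. Ern1 encodes IRE1 alpha. Dnajb9 was at 65.7 and 44.3 CPM in the mock libraries, 53.2 and 42.7 under HT-DNA, 61.3 and 47.1 under hpRNA, and 49.4 and 43.3 under cGAMP. Dnajb9 stood at 61.8 and 10.00 CPM under G3-YSD (libraries 1 and 2) and at 60.5 and 10.3 CPM under HSV. Dnajb9 encodes ERdj4, a J protein that XBP1 induces and that returns BiP to IRE1. For all 3 genes library 2 of G3-YSD and HSV was below every other library, while library 1 of both lay within the range of the other 8. The Dnajb9 ratio of library 1 to library 2 was 5.94-fold in G3-YSD and 5.64-fold in HSV, the widest of the 38 genes, and the levels in library 2 rested on 130 and 125 counts.

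**Figure D4:**
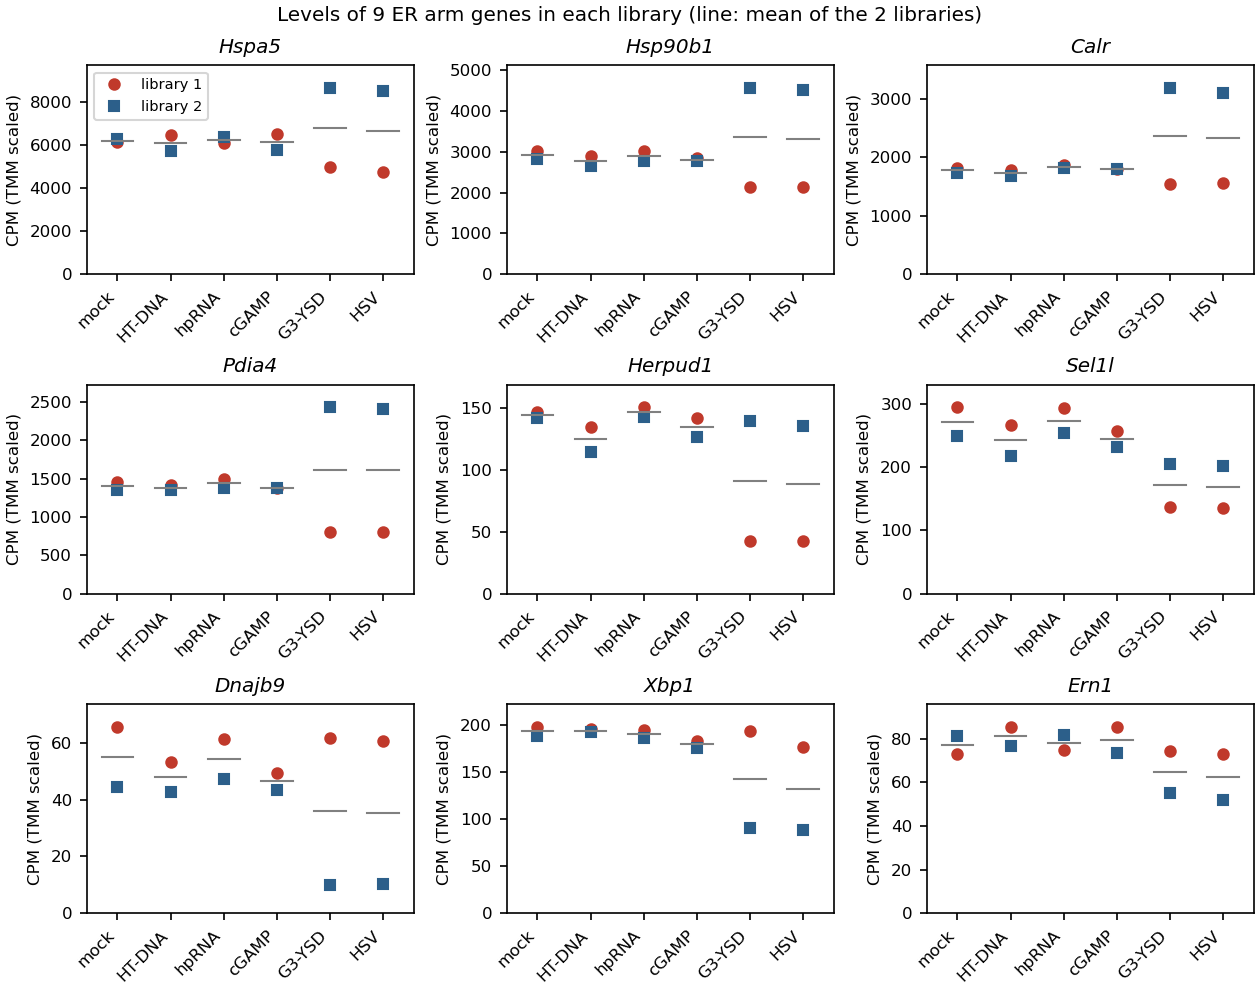
Levels of 9 ER arm genes, with the label on the horizontal axis and CPM on a linear vertical axis from 0. Circles are library 1, squares library 2 and grey lines their mean. Chaperones such as Hspa5 and Calr are low in library 1 and high in library 2 of G3-YSD and HSV, and Dnajb9, Xbp1 and Ern1 are low in library 2.

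No ER arm gene was called in any of the 7 comparisons by edgeR or DESeq2. At an unadjusted p under 0.05, edgeR gave 2 of 16 genes in G3-YSD against mock (Edem1 and Sel1l), 1 in HSV (Sel1l) and 0 in the other 5 comparisons, where 24.2% of all genes in G3-YSD and 24.3% in HSV against mock reached it. The chaperones had small differences of label means. Hspa5 had a log2 fold change of 0.14 (SE 0.30) in G3-YSD and 0.10 (SE 0.30) in HSV against mock. Hsp90b1 had a log2 fold change of 0.20 (SE 0.39) in G3-YSD and 0.19 (SE 0.39) in HSV against mock. For both genes, as for Creld2 and Manf, the mean averaged a low library 1 and a high library 2. Creld2 had a log2 fold change of 0.26 (SE 0.28) in G3-YSD and 0.27 (SE 0.28) in HSV against mock. Manf had a log2 fold change of -0.16 (SE 0.28) in G3-YSD and -0.07 (SE 0.28) in HSV against mock. Sdf2l1 had a log2 fold change of -0.34 (SE 0.30) in G3-YSD and -0.34 (SE 0.30) in HSV against mock. Sdf2l1 and Herpud1 had only library 1 outside the range of the other 8. Herpud1 had a log2 fold change of -0.67 (SE 0.59) in G3-YSD and -0.70 (SE 0.59) in HSV against mock. Xbp1, Dnajb9 and Ern1 had only library 2 outside it. Xbp1 had a log2 fold change of -0.44 (SE 0.38) in G3-YSD and -0.55 (SE 0.38) in HSV against mock. Dnajb9 had a log2 fold change of -0.61 (SE 0.87) in G3-YSD and -0.63 (SE 0.87) in HSV against mock. Ern1 had a log2 fold change of -0.25 (SE 0.21) in G3-YSD and -0.30 (SE 0.21) in HSV against mock. Adjusted p over these 9 ER arm genes was at least 0.390 by edgeR. The median log2 fold change of the 16 genes was -0.14 in G3-YSD and -0.08 in HSV against mock. When G3-YSD 2 was left out, the log2 fold change of Hspa5 turned from 0.14 to -0.34 and that of Hsp90b1 from 0.20 to -0.46, and HSV without HSV 2 gave -0.40 and -0.46.

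Because the label means hide it, the difference between the 2 libraries of a label is described directly, as the log2 ratio of library 2 to library 1 on CPM + 0.5, with no test. In mock, HT-DNA, hpRNA and cGAMP 0 of 38 genes passed 2-fold, where 2.39%, 1.98%, 2.16% and 1.97% of all genes did. Genes at low levels weigh in such shares. On CPM + 2, all genes past 2-fold fell from 403 to 213 between the mock libraries and from 4930 to 3046 between the G3-YSD libraries. Of the 38 genes, 0 and 10 passed on either scale. In G3-YSD 4 genes were over 2-fold higher in library 2 (8.97% of all genes) and 6 were over 2-fold lower (20.3%). The 4 were Herpud1, Pdia4, Hsp90b1 and Calr, all of the ER arm. The 6 were Atf4, Slc3a2, Chac1 and Ppp1r15a of the ATF4 arm and Dnajb9 and Xbp1 of the ER arm. In HSV 3 were higher (9.54%) and the same 6 were lower (19.9%), with Calr at a ratio of 1.99. Of the 16 ER arm genes 13 were higher in library 2 in G3-YSD and in HSV, where 48.0% and 48.4% of all genes were. Their median log2 ratio was 0.82 and 0.80, against -0.05 and -0.04 for all genes. In the ATF4 arm 13 of 22 in G3-YSD and 11 of 22 in HSV were higher in library 2, with medians of 0.23 and 0.09. Of the 38 genes 36 had the same direction in G3-YSD and HSV. Over all genes tested, the difference between library 1 and 2 correlated at 0.939 between G3-YSD and HSV. Between G3-YSD 1 and HSV 1 no gene of the set differed by more than 1.31-fold (Slc7a11), and between G3-YSD 2 and HSV 2 by more than 1.22-fold (Chac1). In the same libraries the 10 fibroblast markers had sums of 2793 and 2619 CPM in G3-YSD 1 and HSV 1 and of 4216 and 4125 CPM in G3-YSD 2 and HSV 2, against 3077 to 3393 CPM in the other 8. Abundant markers weigh most in these sums. Of the 10, only Fap (3.21-fold and 4.26-fold) and Thy1 (1.22-fold and 1.30-fold, at very low levels) were higher in library 1 of G3-YSD and HSV, on CPM + 0.5. Of these markers edgeR called Fn1 alone, higher in G3-YSD against cGAMP (log2 fold change 0.74), and DESeq2 called Fn1 in each G3-YSD and HSV comparison. Whether that difference and the one in the ER arm are related was not tested.

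**Figure D5:**
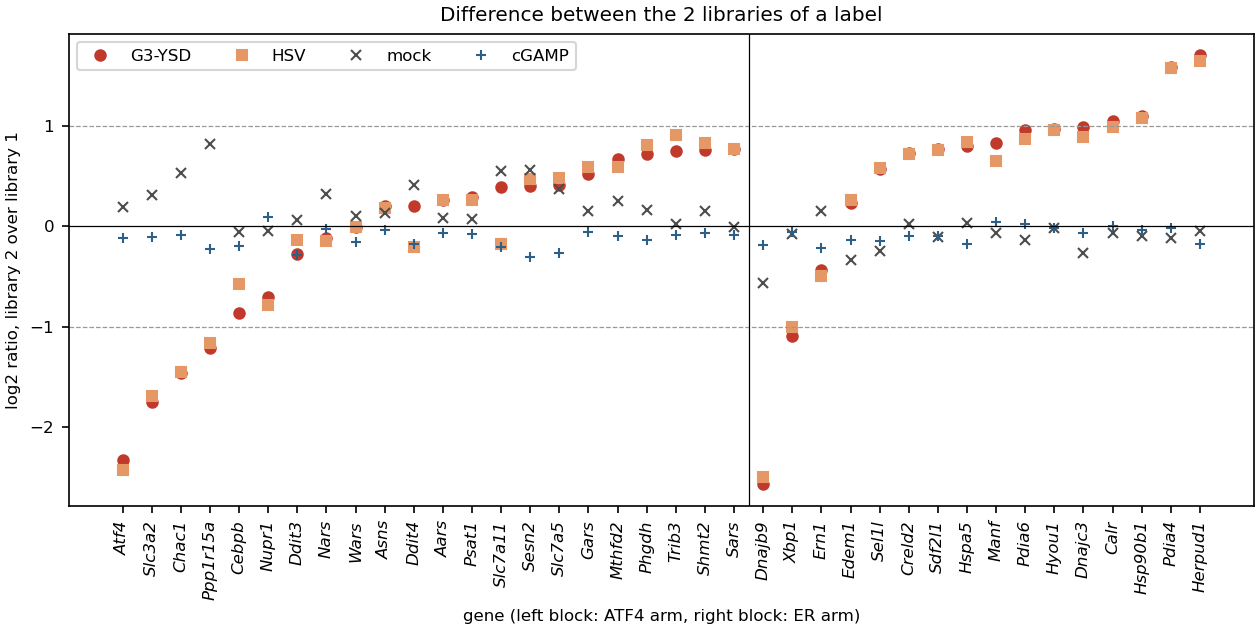
Log2 ratio of library 2 to library 1 (CPM + 0.5) for the 38 genes, sorted within each arm by the G3-YSD ratio, for G3-YSD, HSV, mock and cGAMP. Dashed lines mark 2-fold. Mock and cGAMP stay between the dashed lines for every gene, and G3-YSD and HSV lie close to each other from Atf4, lowest of the ATF4 arm, to Herpud1, highest of the ER arm.

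Summed over its 22 genes, the ATF4 arm had nearly the same level in all libraries, 6133 to 7132 CPM, while its single genes moved both ways. In G3-YSD 13 of the 22 were higher in library 2 and 9 lower, and in HSV 11 and 11. From G3-YSD 1 to G3-YSD 2, Atf4 went from 684 to 135 CPM and Slc3a2 from 591 to 176 CPM. Sars went from 605 to 1034 CPM and Phgdh from 446 to 735 CPM between the same libraries. The 16 ER arm genes summed to 16451 to 18002 CPM in the 8 libraries, to 13536 and 13482 CPM in G3-YSD 1 and HSV 1, and to 26067 and 25791 CPM in G3-YSD 2 and HSV 2. By these sums library 2 was 1.93-fold and 1.91-fold above library 1 for the ER arm and 1.05-fold and 1.06-fold for the ATF4 arm. Abundant genes weigh most in a sum, and 3 ER arm genes (Dnajb9, Xbp1 and Ern1) were lower in library 2 of G3-YSD and HSV.

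Further genes of the same pathways were taken from lists written with earlier results of these data known. Among 22 sensors and regulators edgeR called 2 in G3-YSD and 2 in HSV against mock, beside 5.16% and 5.2% of all genes: Traf2, the adaptor through which IRE1 signals to kinases, was higher (log2 fold change 0.74 in both, SE 0.16, adjusted p = 0.0380 and 0.0364), and Mbtps2, a protease that releases ATF6 at the Golgi, was lower (-0.70 and -0.73, SE 0.13, adjusted p = 0.0249 and 0.0212). Against cGAMP edgeR called Mbtps2 in both (-0.61 and -0.64, SE 0.13) and Traf2 in neither, while DESeq2 called both genes in both. For Mbtps2, G3-YSD 1 gave 28.9 CPM, G3-YSD 2 gave 32.5 CPM, HSV 1 gave 31.1 CPM and HSV 2 gave 29.1 CPM. The other 8 libraries held Mbtps2 at 46.6 to 52.8 CPM. Eif2ak2 was at 38.7 and 226 CPM in the mock libraries, 134 and 326 under HT-DNA, 38.1 and 211 under hpRNA, and 135 and 338 under cGAMP. Eif2ak2 stood at 320.4 and 33.0 CPM under G3-YSD (libraries 1 and 2) and at 343 and 33.6 CPM under HSV. Eif2ak2 encodes PKR, which is also an interferon-induced gene, and it was the only sensor kinase here whose 2 libraries differed several-fold within mock and hpRNA. Eif2ak3 (PERK) lay between 38.5 and 63.6 CPM and Eif2ak4 (GCN2) between 30.2 and 60.7 CPM. DESeq2 called Eif2ak3 in HSV against mock, and Eif2b4, another gene of this list, in G3-YSD and HSV against cGAMP. By edgeR neither was called. DESeq2 calls among the 22 genes were 3 and 4 in G3-YSD and HSV against mock, and 4 and 4 against cGAMP. Over all 16840 genes they were 2191 and 2267, and 2061 and 2033. For Atf3, G3-YSD 1 gave 44.4 CPM, G3-YSD 2 gave 2.00 CPM, HSV 1 gave 41.0 CPM and HSV 2 gave 1.40 CPM. Atf3, a stress-induced repressor of the ATF family, was at or below 1.49 CPM in the other 8 libraries, on 8 to 23 counts each, and its levels in G3-YSD 2 and HSV 2 rested on 26 and 17 counts. Ppp1r15b stood at 214 and 37.7 CPM under G3-YSD (libraries 1 and 2) and at 206 and 37.5 CPM under HSV. Ppp1r15b, the constitutive counterpart of GADD34 in bringing a phosphatase to eIF2 alpha, was at 202 to 216 CPM in the other 8. edgeR called none of Eif2ak2, Atf3 and Ppp1r15b, while DESeq2 called Atf3 in each G3-YSD and HSV comparison; they were chosen for description after their values were seen.

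Of 25 other ATF4 targets 24 were tested (Stc2 was too low), and edgeR called 0 in each of the 7 comparisons. Unadjusted p under 0.05 was reached by 5 in G3-YSD and 7 in HSV against mock, by 5 and 4 against cGAMP and by 0 in the rest, beside 24.2%, 24.3%, 23.2% and 22.9% of all genes in the first 4. DESeq2 called Jdp2, Slc1a4 and Slc1a5, 3 of the 24, in each G3-YSD and HSV comparison. Over all 16840 genes it called 2191 and 2267 in G3-YSD and HSV against mock, and 2061 and 2033 against cGAMP. The median log2 fold change of the 24 was -0.29 in G3-YSD and -0.27 in HSV against mock. In G3-YSD and HSV, 19 and 18 of the 24 were higher in library 2 than in library 1, where 48% and 48.4% of all genes were. Among 32 other genes of ER folding and degradation edgeR called Hspa13 and Txndc11 lower in G3-YSD and HSV against mock, 2 of 32 beside the same 5.16% and 5.2% of all genes. Hspa13, a microsomal HSP70 protein, had log2 fold changes of -0.88 and -0.84 (SE 0.19, adjusted p = 0.0387 and 0.0435), and Txndc11, a thioredoxin-domain protein of the ER, of -0.83 and -0.78 (SE 0.13, adjusted p = 0.0195 and 0.0206). Against cGAMP edgeR called Txndc11 (-0.78 and -0.73). In each G3-YSD and HSV comparison DESeq2 called Derl2, Hspa13, Txndc11 and Wfs1, 4 of 32, beside its counts over all genes given above. In 24 and 23 of the 32 genes library 2 of G3-YSD and HSV was above library 1, beside the same 48% and 48.4% of all genes. The sum of the list was 7660 and 11906 CPM in G3-YSD 1 and 2 and 7520 and 11753 CPM in HSV 1 and 2. Exceptions included Syvn1, the ligase that works with Sel1l, chosen after its values were seen. For Syvn1, G3-YSD 1 gave 134 CPM, G3-YSD 2 gave 29.2 CPM, HSV 1 gave 125 CPM and HSV 2 gave 30.7 CPM. The other 8 libraries held it at 99.3 to 122 CPM.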

How the data were processed

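The authors deposited raw read counts per gene for 12 libraries of polyA RNA, 2 per label. Per the submitters' processing notes, HISAT2, HTSeq and the mm10 build were used; no source used here gives their versions, the strand setting or the annotation release. Groups follow the submitted treatment labels. The 38 genes and the further gene lists were chosen with earlier results of these data known.

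All genes passing edgeR's filterByExpr (16840 of 54532) were fitted together over the 12 libraries with edgeR 4.0.16 (R 4.3.3), TMM scaling and the quasi-likelihood test, with Benjamini-Hochberg adjustment over all of them. The biological coefficient of variation was 0.397, on 6 residual degrees of freedom. Levels are TMM-scaled CPM computed from the deposited counts, and ratios between libraries used a pseudocount of 0.5. Alternatives were DESeq2 1.42.0, upper quartile scaling, no filter (at least 1 count), the 2 labels alone, the replicate number as a block, and each library left out. Gene positions and overlaps came from GENCODE M21, and promoter windows from RefSeq (GRCm38.p6), with 33 of the 38 genes matched. Protein sequences were not used here.

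Genes named were all members called, 22 members with a value in every library, the 5 widest ranges of each arm and up to 4 called genes of each further list. The other genes described, such as Hyou1, Dnajc3, Pdia6, Phgdh, Shmt2, Slc7a5 and Sars, were chosen after their values were seen. The lowest level given for a gene of the set rests on 91 counts, and the lowest for Atf3, of a further list, on 8.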

Additional observations from a re-analysis of the deposited data

How the results depend on the processing

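The count of genes called depended on the fit. In G3-YSD and HSV against mock and then against cGAMP, edgeR called 869, 876, 842 and 856 genes. DESeq2 called 2191, 2267, 2061 and 2033, no filter on low counts gave 1894, 1892, 1650 and 1633, and the 2 labels compared alone gave 0 in each, as did a replicate block over those 4 libraries. Genes of the set numbered 3, 2, 3 and 2: DESeq2 called 5, 4, 5 and 5, no filter gave 4 in each (Cebpb, Chac1, Ddit4 and Slc7a11, so Ddit3 against cGAMP was lost), the replicate block over 12 libraries gave 4 in each (Cebpb, Ddit3, Ddit4 and Slc7a11, so Ddit3 against mock passed), and the 2 labels alone and their block gave 0 in each. Upper quartile scaling lost Slc7a11 in G3-YSD against mock and cGAMP and Ddit4 in HSV against mock. In HT-DNA and hpRNA against mock DESeq2 called 1 gene each, where edgeR called 0. Fitting only the 8 libraries of mock, HT-DNA, hpRNA and cGAMP (14543 genes) with a replicate block called 14 in HT-DNA and 23 in cGAMP, while the block over 12 libraries called 0 in both. Leaving out each library in turn gave 0 to 1281, 0 to 1263, 0 to 1215 and 0 to 1164 genes and 0 to 4, 0 to 3, 0 to 4 and 0 to 4 of the set, and 0 in HT-DNA, hpRNA and cGAMP. The 0 came without either mock library or, against cGAMP, without either cGAMP library. The highest counts came without HSV 1 for G3-YSD and without G3-YSD 1 for HSV. Without G3-YSD 2 the G3-YSD counts were 77 and 206, without HSV 2 the HSV counts were 130 and 146, and without any 1 library of the labels not compared, other than G3-YSD and HSV, 199 to 385 genes were called. The lone library left under a label was then assumed to vary like those of the other labels.

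Replicate numbers are only shared numbers in the labels. Deviations of same-numbered libraries correlated at 0.379, 0.654 and 0.365 in HT-DNA, hpRNA and cGAMP against mock, and at -0.355, -0.357, -0.316 and -0.317 in the G3-YSD and HSV comparisons. The block over 12 libraries gave 1211, 1214, 1142 and 1079 genes. A crossed replicate block, chosen after seeing the data, gave 984 and 999 genes against mock and 121 and 321 against cGAMP, with 0 and 1 of the set against cGAMP. Its counts of the set against mock are not given here, so those against cGAMP do not speak for the comparisons with mock.

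With 1.5-fold in place of 2-fold, 1 gene of the set passed between the mock libraries, 2 between hpRNA, 24 between G3-YSD and 24 between HSV libraries. Of all 16840 genes, 1576 passed between the mock libraries, 1355 between hpRNA, 8683 between G3-YSD and 8665 between HSV libraries. Scaled by library total alone, the ER arm mean was 18067.5 CPM in mock and 18107.5 CPM in hpRNA. Under upper quartile scaling the log2 fold change of Manf in HSV against mock turned to 0.093. Such turns by setting were looked for in only 22 of the 38 genes, so others may have turned as well. With each library left out in turn the sign turned in 19 of 38 genes in G3-YSD and 19 in HSV, Pdia4, Calr and Hyou1 among them; values follow for the 8 among the 22 genes with printed fold changes. In G3-YSD the lowest and highest values were -2.28 and 0.046 for Atf4, -0.52 and 0.055 for Sesn2, -0.34 and 0.47 for Hspa5, -0.46 and 0.64 for Hsp90b1, -2.47 and 0.15 for Dnajb9, -0.17 and 0.57 for Creld2 and -0.64 and 0.19 for Manf. In HSV they were -0.0073 and 0.17 for Asns, -0.54 and 0.041 for Sesn2, -0.40 and 0.45 for Hspa5, -0.46 and 0.62 for Hsp90b1, -2.42 and 0.13 for Dnajb9, -0.15 and 0.58 for Creld2 and -0.44 and 0.21 for Manf. The sign turned without library 2 of the label, except for Sesn2 (without mock 2) and Manf (without library 1). The cause was not tested.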
